A study of Mus musculus with 250 samples.

Results

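Collagens are the main structural proteins of the extracellular matrix, and the gene set described here holds their chains together with the enzymes that hydroxylate and crosslink them. It was a list of 37 mouse gene symbols, each found through the array probe sets that carry that symbol alone. Of these genes 36 were measured, 29 for collagen chains and 7 for enzymes, among 18193 genes tested in all. The probe sets for the lysyl oxidase relative Loxl2 carry more than 1 symbol, and that gene was not measured here.

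RNA was measured on Affymetrix Mouse Genome 430 2.0 arrays in 5 whole tissues of female FVB mice: breast, liver, spleen, thymus, and blood cells without plasma. Tumor-bearing mice carried MMTV-rtTA together with TetO-NeuNT, a pair of transgenes in which the MMTV promoter, active mainly in mammary epithelium, makes a doxycycline-dependent activator that switches on an activated Neu (Her2, Erbb2) oncogene. Each control was a littermate with TetO-NeuNT and no MMTV-rtTA, matched by age and cage. Doxycycline (2 mg/mL) and sucrose (5%) were in the drinking water of all mice, controls included, once they were 8 weeks old, and each pair was killed when the tumor measured 1 cm, at an age not given in the sources used here. There were 25 pairs per tissue and 250 arrays. Tumor tissue was thus set against whole normal breast, while the other tissues were those of mice with and without a breast tumor. Levels are given as log2 of the deposited intensity, changes as tumor-bearing minus control on that scale, and a gene was called higher or lower at an adjusted p under 0.05 from limma with the matched pair as a block.

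Collagen molecules are triple helices of 3 chains. Fibrillar collagens, led by type I and type III, form the load-bearing fibres; types V and XI sit inside those fibres and regulate their diameter; type IV chains form the sheet of basement membranes; and types IX, XII, XIV and XVI decorate fibre surfaces. Prolyl hydroxylases stabilise the helix inside the cell, lysyl hydroxylases mark the lysines, and lysyl oxidases join the chains outside it. In mammary tumors collagen fibres and their crosslinks are known to build up and stiffen the stroma, and in liver collagens are made chiefly by stellate cells and portal fibroblasts.

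The 250 bases before the transcript start are shown for 4 members whose results differ in kind: Col11a1, with the largest change of the set in breast, Col4a5 and Col4a6, which lie head to head and were higher together there, and Col3a1, which was higher in liver and spleen and not called in breast. The sequences are from RefSeq on GRCm38.p6, on the strand of the gene, at chr3:114030290-114030539 for Col11a1, chrX:141475169-141475418 for Col4a5, chrX:141474077-141474326 for Col4a6 and chr1:45311288-45311537 for Col3a1. Capitals mark matches, on either strand, to the CCAAT box (CCAAT), the GC box (GGGCGG), the TATA box (TATAAA) and the core of the hypoxia response element (ACGTG).
Col11a1: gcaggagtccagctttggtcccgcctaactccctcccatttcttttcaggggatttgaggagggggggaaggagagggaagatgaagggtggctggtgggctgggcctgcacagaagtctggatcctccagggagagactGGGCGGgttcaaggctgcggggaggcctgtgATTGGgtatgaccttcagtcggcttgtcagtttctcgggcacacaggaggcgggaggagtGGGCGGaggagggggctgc
Col4a5: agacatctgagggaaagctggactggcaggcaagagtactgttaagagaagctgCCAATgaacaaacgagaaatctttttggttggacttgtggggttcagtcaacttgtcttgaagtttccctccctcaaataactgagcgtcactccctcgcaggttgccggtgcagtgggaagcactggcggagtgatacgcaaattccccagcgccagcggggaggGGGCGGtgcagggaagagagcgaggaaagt
Col4a6: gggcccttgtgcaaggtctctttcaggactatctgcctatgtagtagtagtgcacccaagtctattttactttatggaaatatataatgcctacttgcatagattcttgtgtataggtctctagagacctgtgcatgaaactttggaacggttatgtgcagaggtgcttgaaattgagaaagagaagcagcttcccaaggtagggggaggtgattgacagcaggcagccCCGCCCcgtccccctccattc
Col3a1: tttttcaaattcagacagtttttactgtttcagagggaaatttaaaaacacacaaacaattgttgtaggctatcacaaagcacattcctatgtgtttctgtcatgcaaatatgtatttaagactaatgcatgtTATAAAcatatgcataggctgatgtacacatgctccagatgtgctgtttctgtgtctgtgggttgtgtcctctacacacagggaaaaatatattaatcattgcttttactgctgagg
The Col11a1 window held 1 CCAAT box and 2 GC boxes, that of Col4a5 held 1 of each, that of Col4a6 held 1 GC box, and that of Col3a1 held a TATA match. Over all 32851 windows of this length in the RefSeq table, 33.8% held a CCAAT box, 32.7% a GC box, 12.4% a TATA box and 16.6% the hypoxia core. Windows were found for 26 of the 36 measured members, 29 windows in all, and of these 11 held a CCAAT box, 18 a GC box, 5 a TATA box and 6 the hypoxia core. These matches describe letters only. Col4a5 and Col4a6 start 1343 bases apart on opposite strands of the X chromosome, and Col4a1 and Col4a2 start 21 bases apart on opposite strands of chromosome 8; Col4a3 with Col4a4, Col3a1 with Col5a2, and Col6a1 with Col6a2 are neighbours as well.

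Some arrays stood apart from the rest of their tissue or went against their labels. By their median correlation with the other arrays of the same group, 18 of the 250 arrays were outlying, 4 from tumor-bearing and 14 from control mice, and they lay in 3 breast, 5 liver, 3 spleen, 3 blood and 3 thymus pairs. In breast, Erbb2 was higher in tumor-bearing mice by 1.28 on average, but it was lower in the tumor-bearing mouse in pairs 1 and 9, with changes of -0.69 and -0.61. The luminal marker level of the pair 1 control (12.33) was within the range of the tumor samples, and the adipocyte marker level of the tumor-labelled sample of pair 9 (11.09) was within the range of the controls. In spleen, the controls of pairs 15 and 20 had B cell marker levels of 6.43 and 6.35, against 11.58 to 13.25 on the arrays that were not outlying, and the tumor-bearing sample of pair 15 had a thymocyte marker level of 11.43 against 6.12 to 6.88. In thymus, the controls of pairs 4 and 7 had thymocyte marker levels of 6.60 and 7.35, against 11.14 to 12.55. In liver, the control of pair 9 correlated with its group at a median r of 0.34, against 0.99 for the arrays that were not outlying. All results below are given with all 25 pairs, and where it matters without the pairs that hold outlying arrays. Leaving out arrays that do not resemble their own group by itself favours groups that do not overlap. A lack of overlap after that step is therefore a description and no separate evidence. The sample IDs also fall into 2 runs, an earlier one of 10 pairs and a later one of 15 in every tissue, whose meaning the labels do not give.

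In breast, most members were higher in tumor tissue, some by far and some by little, and a few were lower than in normal breast. Of the 36 members 20 were higher and 5 lower in tumor-bearing mice; of all genes tested, 30% were higher and 32.3% lower. The median change of the members was 0.64, against -0.03 over all genes. With the outlying arrays left out the counts were again 20 and 5, with 31.8% and 35.8% of all genes called.

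The largest change of the set was that of Col11a1, a minor fibrillar chain best known from cartilage and from tumor stroma. Its level ran from 6.75 through a median of 10.97 to 12.87 in tumor-bearing mice, against 4.69, 6.26 and 11 in controls. Levels in tumor-bearing mice were higher in 24 of 25 pairs, and the groups overlapped through the tumor-labelled sample of pair 9 (6.75) and the control of pair 1 (11). The change was 4.45 ± 0.30 (SE, 25 pairs), a 21.8-fold higher level (adjusted p = 2.48e-11 by limma), and 4.82 without the outlying arrays. In the 22 pairs that remained then, the lowest tumor-bearing sample (8.98) lay above the highest control (8.61). The rule that left arrays out favours such a gap, since it removed the samples that made the groups overlap. A second probe set for Col11a1 gave a change of 4.51.

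Among the major fibrillar chains the changes were small. Col1a1 and Col1a2, the chains of type I collagen, had changes of 0.72 ± 0.22 and 0.50 ± 0.13, both called (adjusted p = 0.00538 and 0.00116). Col1a1 levels ran from 10.95 through 12.26 to 12.99 in tumor-bearing mice, against 9.04, 11.54 and 12.98 in controls, so that the groups overlapped over most of their range. Col3a1, the chain of type III collagen, which forms fibres with type I, had a level of 12.60, 13.53 and 13.98 (lowest, median, highest) in tumor-bearing mice, against 11.81, 13.53 and 14.06 in controls. Its change was 0.00 ± 0.13, with 12 pairs higher and 13 lower, and it was not called. The type V chains, which nucleate the fibres, differed in direction: Col5a2 was higher (0.81 ± 0.14, 23 of 25 pairs), Col5a3 was lower (-0.58 ± 0.17, 17 of 25 pairs lower), and Col5a1 had a change of 0.24 that was not called (adjusted p = 0.174). For Col5a3 a second probe set, with a mean level of 3.99 where values were floored at 3.50, was called higher by 0.18. Col2a1 and Col11a2, chains of cartilage, were called at 0.67 ± 0.23 and 0.68 ± 0.23 (adjusted p = 0.0114 and 0.0117). Their changes came from part of the pairs: that of Col2a1 reached 3.61 in pair 13 and 3.26 in pair 19, that of Col11a2 reached 3.68 in pair 23 and 3.29 in pair 13, and 9 and 8 pairs had a change below 0.

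The fibril-associated chains held the next largest changes. Col9a1, a chain of the cartilage collagen type IX, had levels of 9.21, 12.76 and 13.51 in tumor-bearing mice, against 7.12, 9.16 and 12.83 in controls, a change of 3.54 ± 0.26 and an 11.7-fold higher level (adjusted p = 3.66e-11). Col12a1, the chain of the fibre-surface collagen XII, had levels of 6.80, 9.57 and 10.68, against 5.95, 6.56 and 9.16 in controls, a change of 2.75 ± 0.22 and a 6.71-fold higher level. As for Col11a1, the lowest tumor-bearing sample of both genes was that of pair 9 and the highest control that of pair 1, and without the outlying arrays the groups did not overlap (Col12a1 at 7.89 or more in tumor-bearing mice, against 6.99 or less in controls). Col16a1 was higher by 1.45 ± 0.18. Col14a1, which shares the fibre surface with collagen XII, had a change of -0.14 that was not called (adjusted p = 0.402).

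All 3 network-forming short-chain members were higher. Col8a1, found in vessel walls and in the matrix of dividing smooth muscle, had levels of 8.56, 11.50 and 12.64 in tumor-bearing mice, against 5.97, 9.12 and 11.62 in controls, and a change of 2.53 ± 0.29. Its partner chain Col8a2 was higher by 1.59 ± 0.18. Col10a1, the collagen of hypertrophic cartilage, was higher by 0.78 ± 0.15, and 13 tumor-bearing samples lay above the highest control.

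Among the type IV chains of the basement membrane 2 were higher and 1 lower. Col4a5 and Col4a6 were both higher, by 1.96 ± 0.21 and 1.79 ± 0.18, each in 23 of 25 pairs (adjusted p = 8.53e-09 and 2.69e-09). Col4a5 levels were 7.73, 9.27 and 10.13 in tumor-bearing mice, against 5.86, 7.22 and 9.84 in controls, and the groups did not overlap without the outlying arrays (8.57 or more in tumor-bearing mice, against 8.56 or less in controls). Col4a1 and Col4a2, the chains of nearly every basement membrane, had changes of 0.18 ± 0.13 and 0.16 ± 0.13 that were not called (adjusted p = 0.226 and 0.305). Col4a3 was lower (-0.29 ± 0.08), and Col4a4 had a change of 0.13 that was not called.

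Of the other chains, Col18a1, whose C-terminal fragment is endostatin, was higher by 1.51 ± 0.25, and Col7a1, the anchoring fibril chain, by 1.11 ± 0.27. Col17a1, a transmembrane collagen of basal epithelial cells, was lower (-0.86 ± 0.28, adjusted p = 0.00936). Its levels were 3.51, 4.98 and 8.47 in tumor-bearing mice, against 4.62, 5.77 and 7.50 in controls, so the tumor-bearing samples spread wider on both sides. Of 5 markers of mammary basal epithelium 2 were lower and none higher, with a mean change of -0.70 ± 0.25, and their part in the Col17a1 result was not tested. Col15a1, the relative of Col18a1 in vessel and muscle basement membranes, was lower (-0.41 ± 0.15). The 3 type VI chains, Col6a1, Col6a2 and Col6a3, had changes of -0.03, 0.13 and -0.05, and none was called.

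The enzymes differed by gene within each family. Loxl3, a lysyl oxidase relative, had levels of 7.60, 10.21 and 11.36 in tumor-bearing mice, against 6.41, 7.54 and 9.94 in controls, a change of 2.46 ± 0.23 and a 5.49-fold higher level (adjusted p = 6.83e-10). Lox itself was higher by 0.61 ± 0.14, and Loxl1 had a change of -0.11 that was not called (adjusted p = 0.457). Among the lysyl hydroxylases, Plod2, which hydroxylates the ends of the chains where crosslinks form, had levels of 8.31, 10.40 and 11.07 in tumor-bearing mice, against 5.72, 7.95 and 10.41 in controls. Its change was 2.32 ± 0.22, a 4.99-fold higher level in 24 of 25 pairs. Plod1 was higher by 0.70 ± 0.15. Of the prolyl hydroxylase subunits, P4ha2 was lower (-0.49 ± 0.11) and P4ha1 had a change of -0.06 that was not called.

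**Figure D1:**
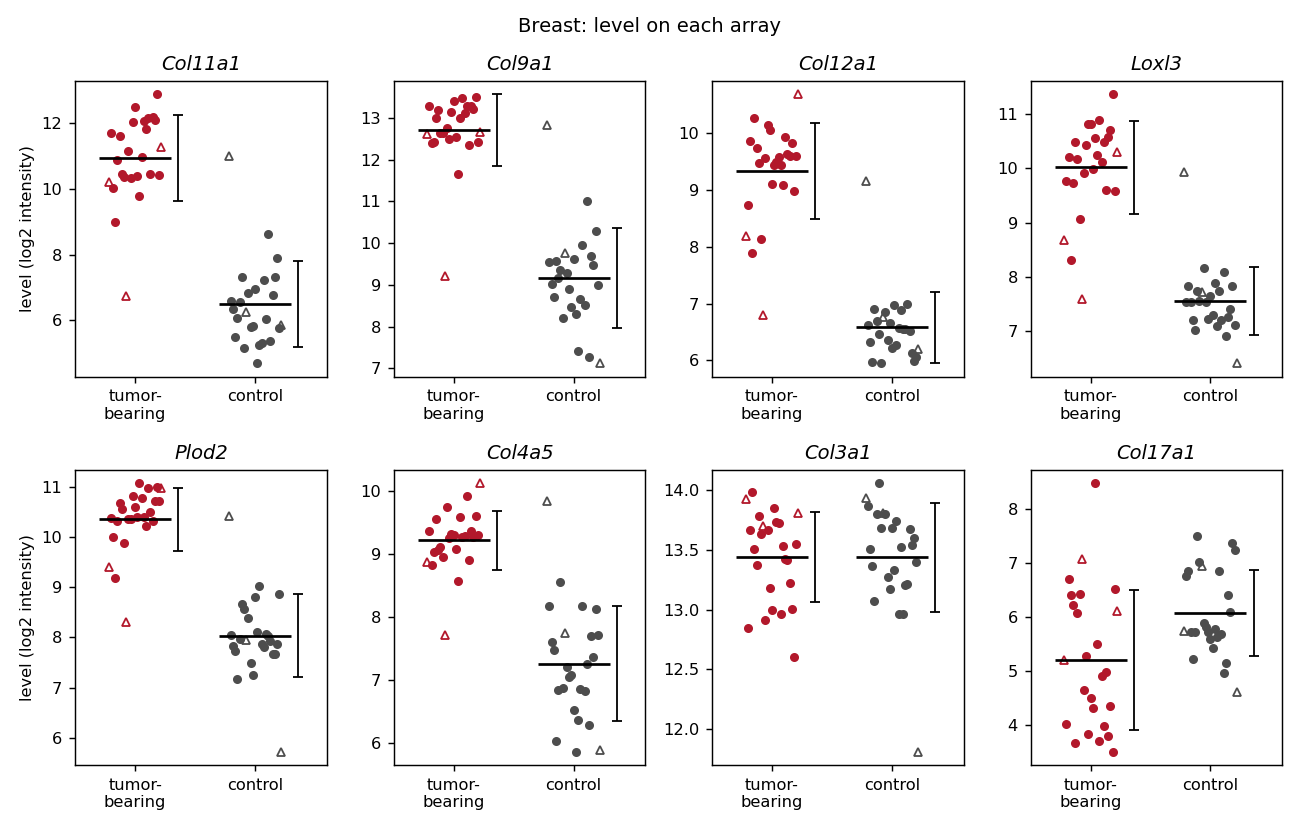
Level in breast (y axis, log2 intensity) of 8 members on each array, tumor-bearing mice on the left and controls on the right of each panel; black lines are means, bars to the right are 1 SD, and open triangles are arrays of pairs that hold an outlying array. Apart from those triangles, every tumor-bearing sample lies above every control for Col11a1, Col9a1, Col12a1, Loxl3, Plod2 and Col4a5, while the groups lie on each other for Col3a1. The triangles were set apart for low correlation with their own group, which favours such gaps.

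Pair by pair, pairs 1 and 9 stood apart for Col11a1, which changed there by -0.80 and 0.49, against 3.14 to 6.21 in the other 23 pairs. In the 22 pairs without outlying arrays, Col11a1, Col9a1, Col12a1, Col8a1, Loxl3 and Plod2 were higher in every pair, while Col1a1 and Col2a1 were lower in 6 pairs, Col1a2 and Col11a2 in 5, and Col7a1 and Lox in 4. Pair 25, whose control stood apart, had high changes across nearly the whole set, Col1a1, Col3a1 and Col4a1 included. In the earlier run of sample IDs 11 members were higher and 4 lower, with 18.2% and 20.5% of all genes called; in the later run 20 were higher and 3 lower, with 28.0% and 28.2%. The Col11a1 change was 3.45 in the earlier run, which holds pairs 1 and 9, and 5.12 in the later one.

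**Figure D2:**
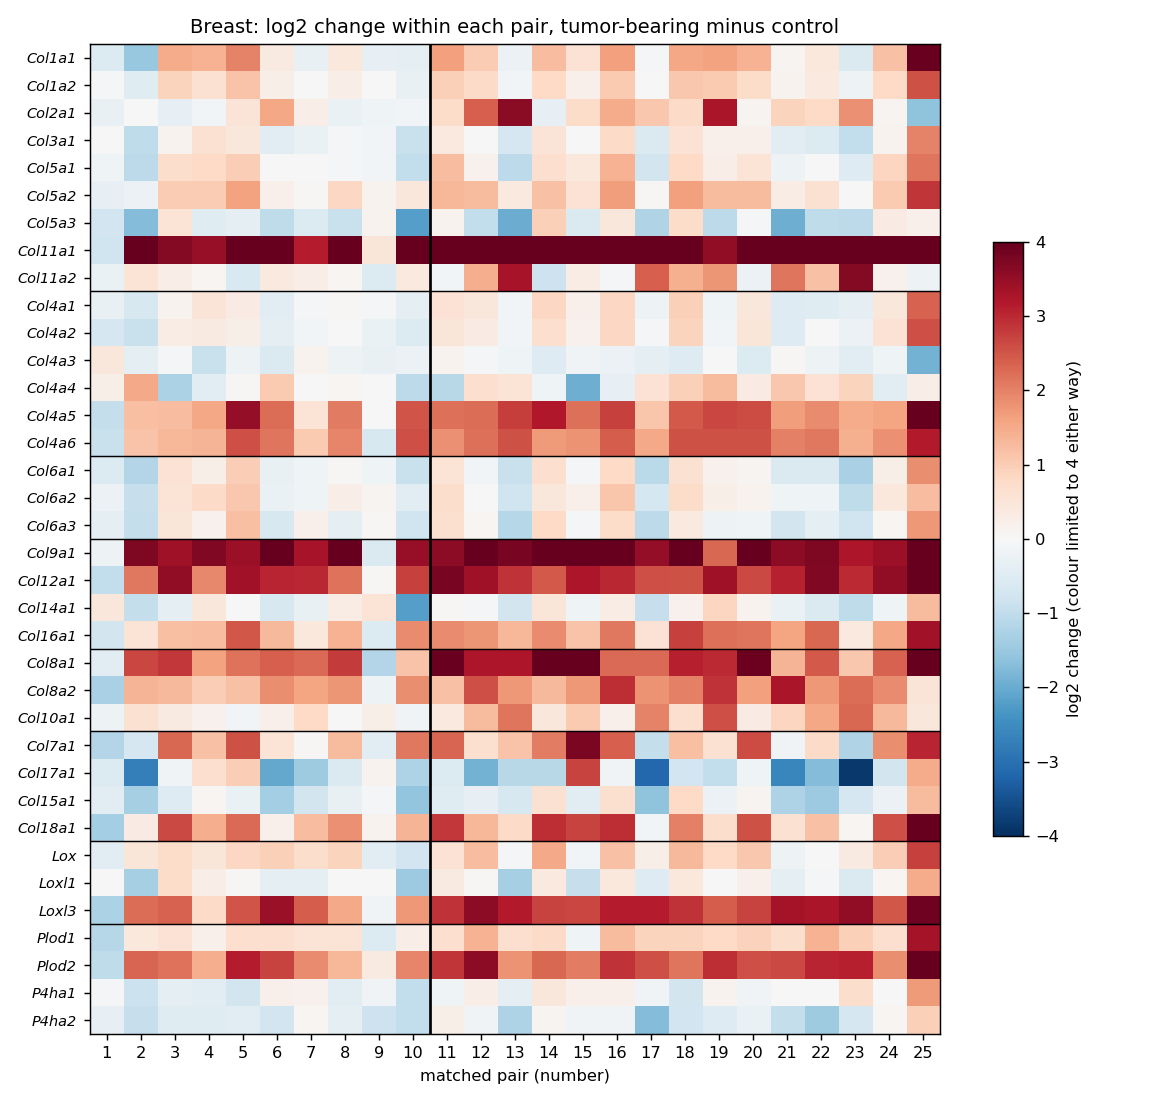
Change in breast within each matched pair (columns, pair number; the vertical line parts the 2 runs of sample IDs) for the 36 members (rows, grouped by role), as colour on a log2 scale limited to 4 either way. Col11a1, Col9a1, Col12a1, Col8a1, Loxl3 and Plod2 are red in nearly every pair, and pairs 1 and 9 lack that pattern.

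Markers of several cell types differed between the breast samples beside these genes. Of all genes tested in breast, 30% were higher and 32.3% lower. Fibroblast and stellate cell marker genes, 1 list, had a mean level of 7.46 to 9.19 in tumor-bearing mice, against 8.32 to 9.42 in controls. Of these 10 markers 1 was higher and 5 lower, and Pdgfra had a change of -0.92. Smooth muscle markers were lower in 5 of 7, endothelial markers in 7 of 8 (1 higher), adipocyte markers in 6 of 6 and skeletal muscle markers in 6 of 6, while luminal epithelial markers were higher in 5 of 6. The adipocyte level was 6.41 to 11.09 in tumor-bearing mice, against 9.54 to 12.32 in controls. In whole tissue, fewer cells of a type and less RNA per cell cannot be told apart. The part of these shifts in the collagen results was not tested. The log2 ratio of 3′ to 5′ Gapdh control probe sets, a measure of RNA integrity, averaged 0.03 over tumor-bearing arrays, against 0.79 over control arrays. The difference was -0.76 ± 0.17 (SE), and the tumor-bearing sample was lower in 21 pairs. With this ratio and that of actin as covariates 17 members were higher and 2 lower, against 20 and 5 without them. Col5a3, Col4a3, Col17a1, Col15a1 and P4ha2 were called lower without these covariates. Which of these 5 calls, and of the 20 higher ones, were lost in the fit with covariates is not given here. The share of all genes called in that fit was not counted.

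Genes that work with the collagens in breast were also measured. Each count of them stands beside 30% of all genes higher and 32.3% lower. Both other type IX chains were higher with Col9a1: Col9a3 by 2.59 ± 0.26 and Col9a2 by 2.48 ± 0.29, among 13 further collagen genes of which 3 were higher and 3 lower; Col20a1 had a change of -0.45. Of 19 genes for folding, modification and processing of procollagen, 11 were higher and 2 lower. P4hb, the partner subunit of the prolyl hydroxylases, was higher by 1.02 ± 0.12 and P3h2, a prolyl 3-hydroxylase, by 1.38 ± 0.17, while the collagen galactosyltransferase gene Colgalt2 had a change of -0.59. Of 13 proteoglycans and matrix proteins that regulate fibres 1 was higher and 7 lower, beside the 32.3% of all genes that were lower: the biglycan gene Bgn was higher by 1.28, and Prelp and Dpt had changes of -2.37 and -1.98. Of 9 receptor and uptake genes 5 were higher and 1 lower, with the integrin chain Itgb1 at 1.29, the inhibitory collagen receptor Lair1 at 1.01 and the discoidin receptor Ddr2 at -0.89.

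In liver, a different part of the set was higher. Of the 36 members 11 were higher and 0 lower in tumor-bearing mice, against 7.89% and 2.28% of all genes. The count of 0 lower stood beside 15 members higher and 0 lower at an unadjusted p under 0.05, which 20.2% of all genes passed in either direction. The members' median change was 0.15, against 0.01 over all genes. The counts without the outlying arrays were 13 higher and 1 lower, with 18.6% and 18.9% of all genes called.

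Among the fibrillar chains Col5a2 had the largest change. Its level was 6.67, 7.85 and 8.97 in tumor-bearing mice, against 5.50, 6.14 and 7.22 in controls; 21 of the 25 tumor-bearing samples lay above the highest control, and all 25 pairs were higher. The change was 1.72 ± 0.14, a 3.29-fold higher level (adjusted p = 3.38e-10), and 1.66 without the outlying arrays. A second Col5a2 probe set, with a mean level of 4.33 near the floor, had a change of 0.22 that was not called. Col3a1, not called in breast, had levels of 9.25, 10.40 and 11.25 in tumor-bearing mice, against 5.84, 9.23 and 9.86 in controls, a change of 1.26 ± 0.17 and a 2.40-fold higher level (adjusted p = 6.27e-06). The lowest control value was that of pair 9, and without the outlying arrays the change was 1.10. Col1a2 was higher by 0.82 ± 0.13 in 24 of 25 pairs. Col1a1 had levels of 4.42 to 5.98 in tumor-bearing mice, against 4.56 to 5.64 in controls, and its change of 0.23 ± 0.09 was not called (adjusted p = 0.132), although it was without the outlying arrays (0.27, adjusted p = 0.0092). Col5a1 and Col5a3 were higher by 0.33 and 0.38. For both, as for Col4a4, the other probe sets of the gene were not called.

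Of the type IV chains, Col4a1 and Col4a2 were higher by 1.10 ± 0.12 and 1.25 ± 0.16, changes of 2.14-fold and 2.38-fold (adjusted p = 8.19e-08 and 2.76e-06). Col4a1 levels were 8.40, 9.27 and 9.99 in tumor-bearing mice, against 6.35, 8.21 and 8.62 in controls, with all 25 pairs higher and 22 tumor-bearing samples above the highest control. Col4a3 and Col4a4, chains of the kidney and lung basement membranes, were higher by 0.45 ± 0.11 and 0.46 ± 0.13. Col4a5 and Col4a6, which were higher in breast, had changes of 0.03 and 0.16 that were not called; without the outlying arrays Col4a5 was called at 0.24.

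Of the remaining chains Col14a1 was higher by 0.63 ± 0.17 and Col15a1 by 0.28 ± 0.09. The Col14a1 change was 0.42 without the outlying arrays, since the controls of pairs 9 and 3 were at 6.31 and 7.51 and no other control was below 9.55. The Col15a1 call was lost then (0.20, adjusted p = 0.074). Col18a1, a chain that hepatocytes make, had a change of 0.35 ± 0.19 that was not called; without the outlying arrays it was 0.18 and called (adjusted p = 6.1e-07), the control of pair 9 being at 6.92 where the next lowest was at 10.64. No enzyme was called with all pairs: Lox, Loxl1 and Loxl3 had changes of -0.02, -0.13 and 0.01, and the hydroxylases lay between 0.08 and 0.26. Loxl1 was lower once the outlying arrays were left out (-0.20, adjusted p = 0.028).

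The 2 runs of sample IDs differed in the number of liver calls. In the earlier run, which holds 3 of the 5 liver pairs with outlying arrays, only Col5a2 was called (1 higher, 0 lower, with 0.467% and 0.055% of all genes called); in the later run 12 were higher and 0 lower (12.1% and 11.7% of all genes). The changes were 1.44 and 1.14 for Col3a1 and 1.14 and 1.07 for Col4a1 in the earlier and the later run.

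Beside these genes in liver, 5 of 8 endothelial markers were higher and none lower, with a mean level of 7.09 to 8.24 in tumor-bearing mice, against 5.51 to 7.77 in controls. Each count with all pairs here stands beside 7.89% of all genes higher and 2.28% lower. Fibroblast and stellate cell markers were higher in 3 of 10, smooth muscle markers in 3 of 7, platelet markers in 3 of 5 and red cell precursor markers in 2 of 3, with none lower; hepatocyte markers were at 14.37 to 14.70 in tumor-bearing mice and 13.70 to 14.66 in controls. With the outlying arrays left out, endothelial markers were higher in 8 of 8, platelet markers in 5 of 5, and fibroblast and stellate cell markers in 5 with 1 lower. Adipocyte markers were then higher in 1 and lower in 4 of 6. Of all genes, 18.6% were higher and 18.9% lower without those arrays. The part of these shifts in the collagen changes was not tested. Of 19 procollagen folding and processing genes 4 were higher and 1 lower, with Serpinh1, the collagen chaperone, at 0.45 ± 0.09, the procollagen C-proteinase enhancer Pcolce at 0.66 ± 0.12 and P3h2 at 0.50. Of 13 fibre-regulating genes 6 were higher and 1 lower; Lum, which encodes lumican, was higher by 1.70 ± 0.21 in 25 of 25 pairs, Tgfbi by 1.19, and Ogn had a change of -0.66. Of 13 further collagens none was higher and 2 lower (Col20a1 at -0.44 and Col13a1 at -0.33), and of 9 receptor genes only Ddr1 was called, at 0.38.

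In spleen, 11 members were higher and 2 lower, against 22.4% and 18.3% of all genes, and the members' median change was 0.11, against 0.00 over all genes. Leaving out the outlying arrays gave 16 higher and 4 lower (28.9% and 26.4% of all genes). Of the 11 members higher in liver and the 11 higher in spleen, 6 were shared: Col3a1, Col5a1, Col5a2, Col4a1, Col4a2 and Col14a1. The number of all genes shared by these 2 tissues was not counted.

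Col5a1 and Col5a2, the chains of type V collagen, were higher in 25 of 25 pairs. Col5a2 levels were 9.03, 9.56 and 10.08 in tumor-bearing mice, against 7.02, 8.67 and 9.26 in controls, a change of 1.02 ± 0.12 and a 2.03-fold higher level (adjusted p = 8.53e-08). Col5a1 levels were 8.82, 9.86 and 10.32 in tumor-bearing mice, against 7.82, 9.03 and 9.63 in controls, a change of 0.93 ± 0.10 (adjusted p = 1.88e-08). In both genes over 20 tumor-bearing samples lay above the highest control. Col3a1 was higher by 0.67 ± 0.12 and Col1a1 by 0.65 ± 0.10. Col1a2 had a change of 0.16 by its main probe set, not called (adjusted p = 0.0851), while of its other probe sets 1 was called higher (0.54) and 1 lower (-0.16).

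Col4a1 levels were 10.41, 11.04 and 11.77 in tumor-bearing mice, against 9.58, 10.10 and 11.34 in controls, a change of 1.03 ± 0.11 (2.04-fold, adjusted p = 5.29e-08), and Col4a2 was higher by 0.87 ± 0.10. Without the outlying arrays no control of Col4a1 exceeded 10.38 and the groups did not overlap. Col4a3 and Col4a4 had changes of -0.47 ± 0.30 and -0.66 ± 0.36 that were not called. Their size came mostly from 2 controls, those of pairs 15 and 20, which lacked B cell markers. These had Col4a3 levels of 10.92 and 10.46 and Col4a4 levels of 11.87 and 11.89, where no other control exceeded 5.24 and 5.15. Without the outlying arrays the changes were -0.02 and -0.11. The smaller change of Col4a4 was then called lower, with 15 of 22 pairs lower.

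Col8a1 was higher by 0.72 ± 0.13 and its partner chain Col8a2 lower (-0.46 ± 0.09, 23 of 25 pairs lower), whereas both were higher in breast. Without the outlying arrays Col8a1 levels were 6.81 to 7.83 in tumor-bearing mice, against 5.96 to 6.67 in controls, and the changes were 0.87 and -0.58. Col14a1 was higher by 0.31 ± 0.06 and Col6a2 by 0.25 ± 0.09.

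Of the enzymes, Lox had levels of 7.04, 7.60 and 8.88 in tumor-bearing mice, against 6.68, 7.12 and 7.71 in controls, and was higher by 0.55 ± 0.08 (adjusted p = 2.89e-06). Loxl3 was higher by 0.20 ± 0.04 and P4ha1 was lower (-0.20 ± 0.05). For P4ha1, and for Col14a1 above, the other probe sets of the gene were not called. Plod2 and Col18a1 had changes of 0.21 and 0.27 that were not called with all pairs and were called at 0.36 and 0.47 without the outlying arrays, the controls of pairs 15 and 20 having the highest levels of both genes. Plod1, Col5a3 and Col11a1 were also called higher then (0.23, 0.14 and 0.11), and Col11a2 and Col4a4 lower (-0.21 and -0.11). In the earlier run 12 members were higher and 1 lower (22% and 21.3% of all genes), and in the later run 11 and 2 (16.1% and 10.0%).

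Beside these genes in spleen, 4 of 8 endothelial markers were higher and 1 lower, and 4 of 5 platelet markers and 2 of 3 red cell precursor markers were higher. Fibroblast and stellate cell markers were higher in 2 and lower in 2 of 10 (8.12 to 9.31 in tumor-bearing mice, against 7.51 to 8.80 in controls). Smooth muscle markers were lower in 4 of 7. Each count with all pairs here stands beside 22.4% of all genes higher and 18.3% lower. Once the outlying arrays were left out, endothelial markers were higher in 7 and lower in 1, and fibroblast and stellate cell markers higher in 2 and lower in 5. All 4 measured B cell markers were then lower. Of all genes, 28.9% were higher and 26.4% lower without those arrays. The log2 ratio of 3′ to 5′ Gapdh probe sets was -0.18 over the tumor-bearing spleen arrays, against -0.30 over the control arrays (a difference of 0.12 ± 0.05). The part of these shifts was not tested. Of 13 fibre-regulating genes 3 were higher and 5 lower, with the fibronectin gene Fn1 at 0.90 ± 0.07, Sparc at 0.53 and Ogn at -0.86. Of 19 processing genes 6 were higher and 4 lower, counts near the shares of all genes. Among them were the lysyl hydroxylase Plod3 at 0.43, the procollagen C-proteinase Bmp1 at 0.42 and the collagen export gene Mia3 at -0.30. Of 13 further collagens 1 was higher and 4 lower, Col27a1 having the lowest change of those named (-0.66, with Col6a4 and Col23a1 both at -0.44). Of 9 receptor genes 3 were higher and 1 lower, among them the platelet receptor Gp6 (0.42), Itgb1 (0.23) and Ddr1 (-0.36).

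**Figure D3:**
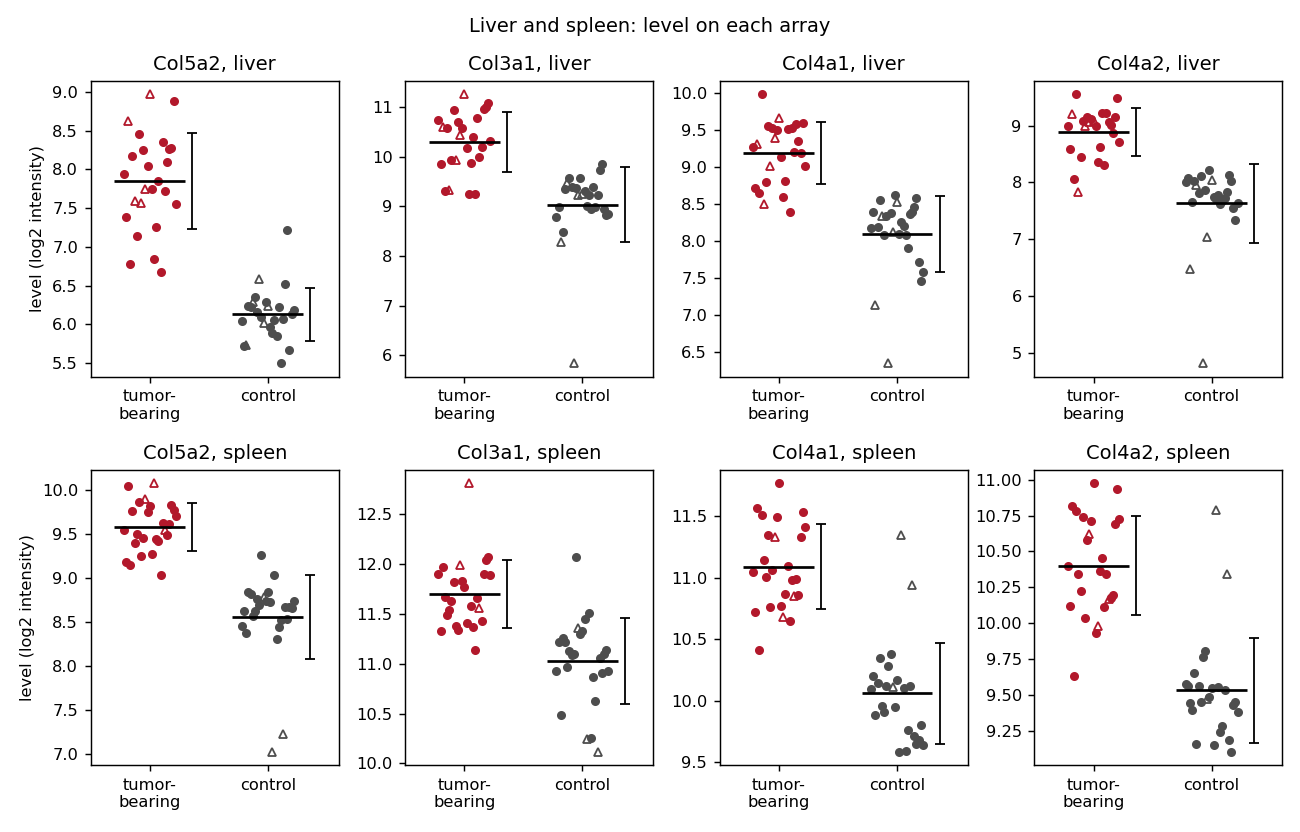
Level (y axis, log2 intensity) of Col5a2, Col3a1, Col4a1 and Col4a2 on each array in liver (upper row) and spleen (lower row), tumor-bearing mice on the left and controls on the right; black lines are means, bars to the right are 1 SD, and open triangles are arrays of pairs that hold an outlying array. In liver 21 to 23 of the 25 tumor-bearing samples lie above the highest control for each gene.

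In blood cells 15 of the 29 collagen chains had a median level within 1 (log2) of the floor of 3.50. With all pairs 3 of the 36 members were higher and 1 lower, against 8.66% and 4.27% of all genes, so the counts lay near those shares. Col6a3, a type VI chain, had levels of 7.11, 7.82 and 9.67 in tumor-bearing mice, against 6.22, 7.46 and 8.21 in controls, and was higher by 0.52 ± 0.14 (adjusted p = 0.0122). P4ha1 was higher by 0.45 ± 0.10 in 21 of 25 pairs and Plod1 by 0.27 ± 0.09. Plod2 was lower (-0.15 ± 0.05) at levels of 3.54 to 4.16 in tumor-bearing mice and 3.50 to 4.62 in controls. The other probe sets of Plod1 and Plod2 were not called, and the Plod2 call was lost under 8 of 11 alternatives (adjusted p of 0.0158 to 0.565 by limma over all 11), the floor at the 20th percentile and both runs among them. Of 12 alternatives for each gene, 5 lost the Plod1 call, 3 the Col6a3 call and 1 the P4ha1 call. The counts were 2 higher and 1 lower without the outlying arrays (9.99% and 13.2% of all genes), with Plod1 no longer being called (0.22, adjusted p = 0.098). Beside these genes in blood, all 4 measured B cell markers were lower in tumor-bearing mice and 2 of 3 red cell precursor markers were higher, and their part was not tested. In the earlier run 0 and 0 members were called (1.67% and 0.077% of all genes), and in the later run 2 and 0 (6.15% and 5.51%).

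In thymus no member was called by limma, where 2 of 18193 genes were higher and none lower (0.011% and 0.0%). At an unadjusted p under 0.05, 6 members were higher and 0 lower, and 4.16% of all genes passed. These 6 were Col10a1 (0.50 ± 0.19), Col17a1 (0.45 ± 0.17), Col8a1 (0.55 ± 0.22), Col9a1 (0.33 ± 0.15), Col14a1 (0.47 ± 0.22) and Col18a1 (0.27 ± 0.13), each with an adjusted p of 0.995. Thymus samples varied widely: Col1a1 ran from 6.57 to 11.01 in tumor-bearing mice and from 5.63 to 12.16 in controls, the highest being the control of pair 4, whose thymocyte markers were low. The log2 ratio of 3′ to 5′ Gapdh probe sets also varied in thymus. It ran from -0.49 to 2.45 over the tumor-bearing arrays and from -0.38 to 2.42 over the control arrays. Its mean difference was 0.03 ± 0.21, and its part in the thymus results was not tested. Again 0 members were called without the outlying arrays, with 0.0824% of all genes higher and 0.0% lower.

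**Figure D4:**
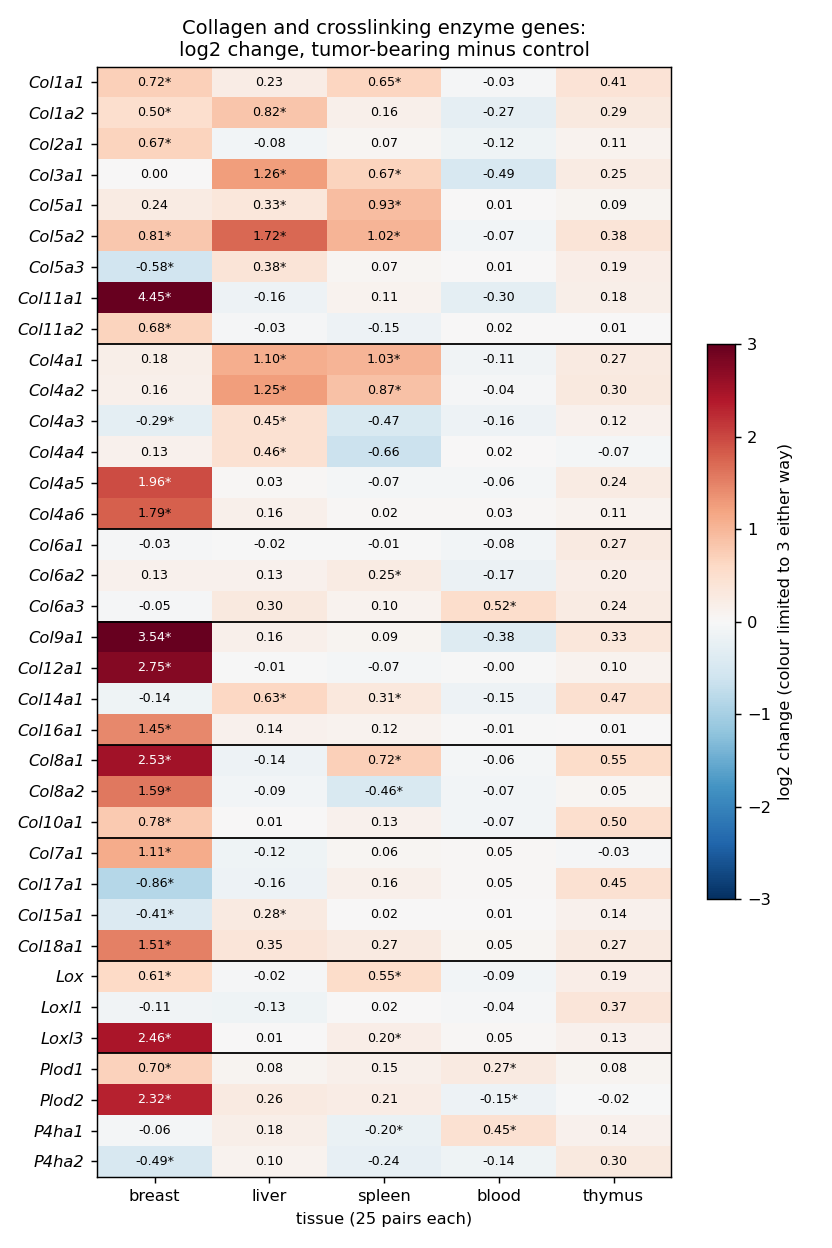
Change on the log2 scale, tumor-bearing minus control, of the 36 members (rows, grouped by role) in the 5 tissues (columns, 25 pairs each), printed in each cell and as colour limited to 3 either way; an asterisk marks an adjusted p under 0.05 by limma. The cells marked in breast number 20 higher and 5 lower, those in liver 11 higher, and thymus has none.

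The leading digits and order of the sample IDs were taken to link the tissues of a mouse, which the labels do not state, and the difference between the changes of 2 tissues was tested within the pairs linked in this way. The change in breast exceeded that in liver in 17 members and fell short of it in 9, against 16.2% and 23.2% of all genes; without the outlying arrays the counts were 17 and 10 (27.8% and 31.3%). The difference was 4.61 ± 0.27 for Col11a1, 3.39 ± 0.25 for Col9a1, 2.76 ± 0.23 for Col12a1, 2.67 ± 0.24 for Col8a1, 2.45 ± 0.21 for Loxl3 and 2.05 ± 0.24 for Plod2, in the direction of breast in 23 or 24 of 25 pairs. It was -1.26 ± 0.22 for Col3a1 (adjusted p = 2.84e-05), -1.09 ± 0.21 for Col4a2, -0.92 ± 0.17 for Col4a1 and -0.91 ± 0.20 for Col5a2. Col5a3, Col4a3 and Col15a1 were lower in breast and higher in liver, with differences of -0.95, -0.74 and -0.69. Of the 20 members higher in breast and the 11 higher in liver 2 were shared, Col1a2 and Col5a2; of the 20 and the 11 higher in spleen 5 were shared, Col1a1, Col5a2, Col8a1, Lox and Loxl3. With all pairs Col5a2 was the 1 member called higher in breast, liver and spleen, and without the outlying arrays there were 3, Col1a1, Col5a2 and Col18a1. How many of all genes were shared in these ways was not counted, so the shared counts have no share over all genes beside them.

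The change in liver exceeded that in spleen in 6 members and fell short of it in 4, against 10.4% and 9.16% of all genes; without the outlying arrays both counts were 8 (24% and 26.2%). Col5a2, Col1a2 and Col3a1 had differences of 0.69 ± 0.17, 0.66 ± 0.17 and 0.59 ± 0.21, while Col8a1, Col5a1 and Lox had -0.86 ± 0.16, -0.60 ± 0.12 and -0.57 ± 0.12. The differences of Col4a3 and Col4a4, 0.92 and 1.12, dropped to 0.42 and 0.67 once the pairs with outlying arrays were left out, spleen pairs 15 and 20 among them. The change in liver exceeded that in thymus for Col5a2 (1.34 ± 0.24), Col3a1 (1.01), Col4a2 (0.95) and Col4a1 (0.83) and fell short of it for Col17a1 (-0.62), which is 4 and 1 members against 2.52% and 0.901% of all genes, and 4 and 1 also without the outlying arrays (4.35% and 2.81%).

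**Figure D5:**
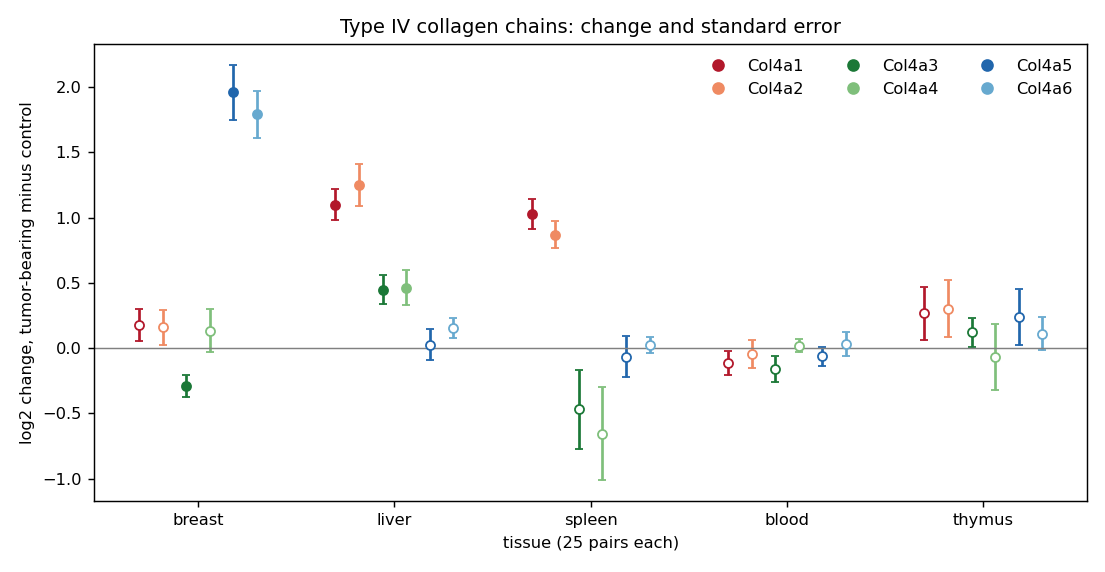
Change (y axis, log2, tumor-bearing minus control) of the 6 type IV collagen chains in the 5 tissues (25 pairs each); bars are 1 SE, and filled points have an adjusted p under 0.05 by limma. Col4a5 and Col4a6 were higher in breast (1.96 and 1.79), Col4a1 and Col4a2 in liver (1.10 and 1.25) and spleen (1.03 and 0.87), and Col4a3 and Col4a4 by less in liver (0.45 and 0.46).

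Whether members changed together from pair to pair was asked of 4 gene pairs in breast and in liver, 8 relations in all, with 100000 permutations each (two-sided) and adjusted over the 8. Members on the same array share its RNA and its scaling. In breast the changes of Col4a1 and Col4a2, which form 1 heterotrimer, correlated at r = 0.97 (Spearman rho = 0.91; permutation p = 1e-05 for both, the smallest these permutations can give, and 2e-05 adjusted), and at 0.93 without the 2 pairs farthest from the median. Within the earlier and the later run r was 0.94 and 0.98. Col1a1 with Col3a1 gave r = 0.91 and rho = 0.89 (permutation p = 1e-05 for both, 2e-05 adjusted), 0.83 without the 2 farthest pairs, and 0.82 and 0.97 within the runs. Col1a1 with Col4a1 gave 0.86 and 0.77 (permutation p = 1e-05 for both, 2e-05 adjusted), 0.75 without the 2 farthest pairs, and 0.85 and 0.89 within the runs. Col1a1 with the crosslinking enzyme Lox gave 0.76 and 0.68 (permutation p = 2e-05 and 0.00023, 3.2e-05 and 0.000368 adjusted), 0.70 without the 2 farthest pairs and 0.56 without the outlying arrays, and 0.48 and 0.87 within the runs.

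In liver Col4a1 and Col4a2 again changed together, with r = 0.92 and rho = 0.92 (permutation p = 1e-05 for both, 2e-05 adjusted), 0.88 without the 2 farthest pairs, and 0.97 and 0.83 within the runs. Col1a1 with Lox gave r = 0.56 and rho = 0.52 (permutation p = 0.00529 and 0.00829, 0.00705 and 0.00947 adjusted), but 0.39 without the 2 farthest pairs, so the relation rests in part on those pairs; within the runs it was 0.37 and 0.74, and without the outlying arrays 0.61. Both genes were dim in liver. Over the 20 pairs without outlying arrays Lox was at 4.60 to 5.19 in tumor-bearing mice and 4.66 to 5.16 in controls. Col1a1 was at 4.69 to 5.88 and 4.56 to 5.64. Col1a1 with Col3a1 gave r = 0.38 (permutation p = 0.0662, 0.0757 adjusted) and rho = 0.53 (permutation p = 0.00736, 0.00947 adjusted), 0.27 without the 2 farthest pairs, 0.17 and 0.81 within the runs, and 0.82 over the 20 pairs without outlying arrays. Col1a1 with Col4a1 gave r = 0.22 and rho = 0.28 (permutation p = 0.293 and 0.169, the same after adjustment), 0.10 without the 2 farthest pairs, 0.01 and 0.57 within the runs, and 0.61 without the outlying arrays.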

How the data were processed

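RNA of 5 tissues was hybridised to 250 Affymetrix Mouse Genome 430 2.0 arrays, per the labels. The deposited values are linear probe set intensities in 1 table of 45101 probe sets, from 5.17 to 47198; how the authors summarised and normalized them is not given in the sources used here. Depth has no meaning on arrays; their number limits the precision. Of the probe sets 34958 carry 1 gene symbol, 932 several and 9211 none; symbols were updated through Entrez IDs for 34754.

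A floor was set at the 5th percentile of the whole table, an intensity of 11.3, before log2 was taken (3.50 on that scale). A gene with several probe sets was read from the one whose average over the 250 arrays was highest. Groups and pairs were taken from the labels; mice were linked across tissues by inference, from the leading digits and order of the sample IDs. Each tissue was fitted alone with limma 3.58.1 (R 4.3.3; lmFit and eBayes), the matched pair as a block, and p-values were adjusted by Benjamini-Hochberg over 18193 genes; differences between tissues used a fit to 1 value per linked pair. Tests across genes name limma throughout; a fold is 2 to the power of the size of the change, which a floor understates. The labels name each sample's age- and cage-matched littermate, which is where the pairing comes from; deviations of matched arrays from their group means correlated at a median r of 0.31 (liver), 0.25 (thymus), 0.22 (blood), 0.15 (spleen) and 0.08 (breast). Each mouse gave 1 array per tissue. An array was outlying when its median correlation with its group lay over 5 scaled median absolute deviations under the tissue's median.

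The members and the companion and marker lists were chosen with earlier results of these data known. The text names all members and, of each companion list and tissue, up to 3 called genes with the smallest p. Some companion and marker genes, Col6a6, Col28a1, Fkbp10, Adamts2, Adamts14, Itga11, Plin1 and Ahsp among them, were not measured here by probe sets with 1 symbol. The titles of all 50 breast arrays hold 1 code, which 2 arrays of each other tissue share. The other 48 arrays of a tissue share 1 further code. What the code stands for is not given by the labels. It was the same for both samples of a pair. A part of the titles that reads as a date differed between the samples of some liver pairs. Alternatives were no pair block, other floors, dim genes left out, quantile normalization within a tissue, other choices of probe set, pairs left out, each run of sample IDs, and RNA quality covariates. Tested on simulated data of 18193 genes with 200 changed, the fit recovered 65% of changes of 0.5 and 96% of changes of 1 for breast. For thymus these shares were 70% and 98%, for liver 45% and 90%, for blood 61% and 94%, and for spleen 85% and 96%. The 200 changed genes were drawn from those above the median level, with independent normal noise of each gene's own spread. The shares thus do not cover dim members or single arrays that stand apart, and they do not measure how well the members were tested. Promoter windows are from RefSeq (GRCm38.p6), matched by symbol.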

Additional observations from a re-analysis of the deposited data

Results flagged for a closer look

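Differences between tissues in how a member changed drew attention because the difference itself passed limma's test within linked pairs (adjusted p under 0.05). All values are differences of log2 changes over 25 linked pairs, and the call counts over all genes stand with the first account of each comparison. The difference between the breast change and the liver change, breast minus liver, was 4.61 for Col11a1, 3.39 for Col9a1, 2.76 for Col12a1, 2.67 for Col8a1, 2.45 for Loxl3, 2.05 for Plod2, 1.93 for Col4a5, 1.68 for Col8a2, 1.64 for Col4a6, 1.31 for Col16a1, 1.24 for Col7a1, 1.15 for Col18a1, 0.76 for Col10a1, 0.75 for Col2a1, 0.71 for Col11a2, 0.63 for Lox and 0.62 for Plod1. On the other side it was -1.26 for Col3a1, -1.09 for Col4a2, -0.95 for Col5a3, -0.92 for Col4a1, -0.91 for Col5a2, -0.76 for Col14a1, -0.74 for Col4a3, -0.69 for Col15a1 and -0.59 for P4ha2.

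The difference between the liver change and the spleen change, liver minus spleen, was 1.12 for Col4a4, 0.92 for Col4a3, 0.69 for Col5a2, 0.66 for Col1a2, 0.59 for Col3a1 and 0.38 for P4ha1. On the other side it was -0.86 for Col8a1, -0.60 for Col5a1, -0.57 for Lox and -0.42 for Col1a1. For Col4a3 and Col4a4 the spleen controls of pairs 15 and 20, which lacked B cell markers, had the highest levels of both genes, and the differences without the outlying arrays were 0.42 and 0.67. The difference between the liver change and the thymus change, liver minus thymus, was 1.34 for Col5a2, 1.01 for Col3a1, 0.95 for Col4a2 and 0.83 for Col4a1, and -0.62 for Col17a1.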

How the results depend on the processing

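Over all members and comparisons, 3066 results by alternative kept their direction and their side of the threshold, 102 lost the call, 45 gained it, and 2 reversed; sign changes between values that were not called are among the 3066. The reversals were the breast minus liver difference of Plod1 in the earlier run (-0.032, adjusted p = 0.965) and the liver minus spleen difference of Col18a1 without the outlying arrays (-0.28, adjusted p = 0.00504), the control of liver pair 9 having the lowest Col18a1 level. Counts of called members are given as higher or lower in tumor-bearing mice, or as larger or smaller in the tissue named before the minus sign. Shares of all genes called were counted with all pairs and without the outlying arrays. For each run they were counted in breast, liver, spleen and blood only. The other counts here have no such share beside them, and the number of genes called in all may move with the setting. Without the pair as a block the counts were 20 higher and 5 lower in breast, 10 and 0 in liver, 10 and 1 in spleen, 2 and 0 in blood, and 0 and 0 in thymus. For the settings that follow, only the counts that moved most from those with all pairs are listed. A count that is not listed stayed the same or moved less. Earlier run: breast 11 higher, liver 1 higher, spleen 1 lower, blood 0 higher and 0 lower, breast minus liver 9 larger, liver minus spleen 1 larger and 1 smaller, liver minus thymus 0 and 0; this run has 10 pairs. Later run: breast 3 lower and blood 0 lower. With outlying arrays left out: liver 1 lower (beside 13 higher), spleen 4 lower (beside 16 higher), and liver minus spleen 8 smaller. With dim genes left out, which removes members from the test: breast 3 lower, liver 7 higher, spleen 1 lower, blood 0 lower, breast minus liver 2 larger, liver minus spleen 1 smaller, liver minus thymus 0 smaller. With RNA quality covariates: breast 2 lower, blood 1 higher and 0 lower. With the mean of all probe sets: liver minus spleen 3 larger, liver minus thymus 2 larger and 2 smaller. With the floor at the 20th percentile, liver minus thymus had 0 smaller and blood 0 lower; blood also had 0 lower with no floor, with quantile normalization and with the probe set highest in the tissue. The causes of these shifts were not tested beyond what the alternatives themselves change. Leaving out only liver pair 9, an alternative chosen after seeing the data, gave 12 higher and 0 lower in liver. Of the 36 members 14 were at the floor on at least 1 blood array, and the floor compresses changes that reach it.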

Other observations

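Proteases that cut collagen were measured in the same samples, and differences between tissues were not tested for them. In breast 4 of 7 were higher and 1 lower: Mmp13, a collagenase, had levels of 3.57, 10.66 and 12.28 in tumor-bearing mice, against 3.67, 4.83 and 10.94 in controls, a change of 4.77 ± 0.40 (adjusted p = 1.35e-10 by limma), with Mmp14 at 1.38 and Mmp8 at 0.59. In spleen 5 of 7 were higher and none lower, in liver 3 of 7, and in blood 2 of 7. Of all genes, 30% were higher and 32.3% lower in breast, and 22.4% and 18.3% in spleen. The shares higher were 7.89% in liver and 8.66% in blood. The neutrophil collagenase gene Mmp8 was higher by 3.20 in spleen, 3.79 in blood and 1.25 in liver, and the gelatinase gene Mmp9 by 3.01, 3.06 and 0.67; Mmp14 was higher by 0.43 in spleen and 0.57 in liver. In blood the matrix gene Tgfbi was higher by 2.17 and Dcn had a change of -0.69, and the collagen receptor Lair1 was higher by 0.54.

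Of 12 measured genes for TGF-beta ligands, receptors and targets, 10 were higher and 1 lower in breast, 5 and 0 in liver, 1 and 6 in spleen, and 1 and 1 in blood. Of all genes, 30% were higher and 32.3% lower in breast, and 7.89% and 2.28% in liver. The shares were 22.4% and 18.3% in spleen, and 8.66% and 4.27% in blood. The target genes Skil and Smad7 were higher by 1.32 and 0.82 in breast, and the co-receptor gene Tgfbr3 had a change of -1.001. In liver Skil, Ccn2 and Tgfbr3 were higher by 0.83, 0.72 and 0.42. In spleen Skil, Smad7 and Tgfbr2 had changes of -0.35, -0.46 and -0.51. In blood Tgfbr3 had a change of -0.43 and Tgfbr1 was higher by 0.84.

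Single arrays held collagen levels far from the rest of their group. The blood control of pair 21 had a Col9a1 level of 11.01 and a Col11a1 level of 9.58, where the next highest blood controls had 5.18 and 4.84, and this array was not among the outlying ones. The blood control of pair 16 had a Col3a1 level of 8.29, the next highest being 6.03. In thymus, the tumor-bearing samples of pairs 5 and 3 had Col8a1 levels of 10.65 and 10.03, against 7.83 or less in controls.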
